A study of Mus musculus with 3 samples.

Results

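The genes Prph2, Rom1, Prom1, Tulp1 and Unc119 build the photoreceptor outer segment or deliver proteins to it, and were described here in neural retinas of Rp1 knockout mice (Rp1-/-) of postnatal day 10. They were chosen by symbol, as all probe sets of the Affymetrix U74Av2 array to which the platform annotation gives only that symbol. This gave 7 probe sets for the 5 genes, of 10833 probe sets with 1 symbol for 8251 genes. The data consisted of 3 arrays in 1 group, each with total RNA pooled from the neural retinas of 3 to 4 knockout mice of a mixed 129/SvEv and C57BL/6 background, killed between 1 and 2 pm. All values are therefore levels in mutant retina, arrays of other genotypes were not used here, and every comparison is between pools. The pool numbers follow accession order and are names only, and 1 array, that of pool 1, has no rp1 tag in its title although its description names the same genotype. Whether any mouse gave tissue to more than 1 pool is not stated, so p-values measure only the spread between these RNA samples.

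The outer segment of a rod or cone is a modified cilium filled with stacked membrane discs. Peripherin (Prph2) and its paralogue Rom1 are tetraspanins that form complexes along the rims of the discs, and without peripherin mouse rods make no outer segments. Prominin (Prom1) sits at the base, where new discs form. All outer segment proteins are made in the inner segment and pass through the connecting cilium. Tulp1 takes part in that traffic, and Unc119 binds the lipid-modified end of transducin alpha and solubilises it for transport. The protein of Rp1, the gene disrupted in these mice, binds the microtubules that run up the outer segment, and outer segments are still being built at this age. Mutations of PRPH2, PROM1 and TULP1 cause retinal degeneration in humans.

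The arrays were alike in scale. Signals are in the authors' scaled intensity units, with median signals of 233.3 to 233.8 per array. A floor at the 90th percentile of the bacterial and yeast control probe sets lay at 100.5, 124.8 and 120.4 in pools 1, 2 and 3. All 7 probe sets were above the floor on all 3 arrays, as were all 9 rod markers with a probe set (of 11 listed, among them Sag, Pdc and Nrl) and all 4 bipolar cell markers with one. A probe set is called measured where its mean over pools exceeded the mean of the 3 floors. A probe set was called variable where its variance between pools exceeded that of probe sets of like signal (limma, adjusted p below 0.05). Over the whole array 18 of 8327 measured probe sets were called, or 0.216%, and 1098 (13.2%) had a range of more than 2-fold between the highest and the lowest pool. In bulk retina, fewer photoreceptors and less RNA per photoreceptor cannot be told apart.

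Prph2 was the gene that stood apart. Its 1 probe set, 101169_at, had signals of 9356.3 in pool 1, 1469.1 in pool 2 and 1332.3 in pool 3. Pool 1 was far above the other pools, which lay close together. Pool 1 exceeded pool 2 by 6.37-fold and pool 3 by 7.02-fold, whereas pool 2 over pool 3 was 1.1-fold. The SD of log2 signal was 1.584, which is 6.73 times the SD of 0.236 fitted for probe sets of that signal, and Prph2 was called (limma, adjusted p = 0.0011). It did not pass without pool 1 or when the fit had no trend with signal (limma, adjusted p of 1.0 and 0.98). By rank within the array, which scaling does not alter, Prph2 was at the 99.3rd percentile of gene probe sets in pool 1, at 90.2 in pool 2 and at 89.1 in pool 3. Its signal was 11.1 times the floor or more on every array, so the lower pools were also well inside the measured range. A larger range than that of Prph2 was found for 9 of 8327 measured probe sets, 5 of them lens crystallins. With signals under the floor raised to it, the others were Xist (15.4-fold), Ankrd33b (14.0-fold), Tmem129 (8.31-fold) and Prp2 (8.29-fold). Xist and Tmem129 were lowest in pool 1 and Ankrd33b highest there, with pool 2 over pool 3 at 0.897, 0.852 and 1.04. Prp2 was highest in pool 3. With 1 probe set for Prph2, no second measurement of the transcript was at hand.

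**Figure D1:**
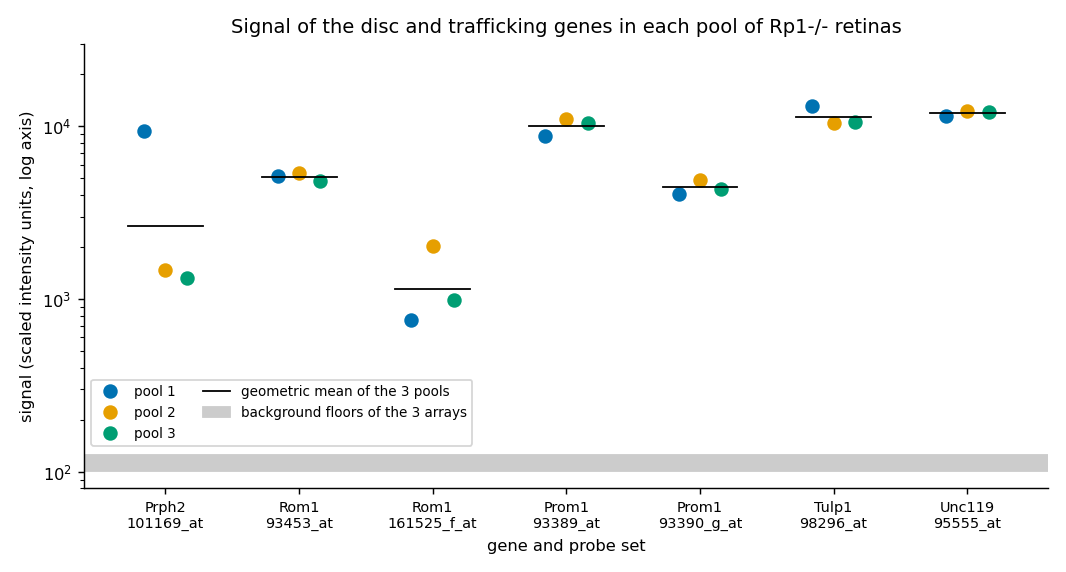
Signal of each probe set of the 5 genes in pools 1, 2 and 3 (points, log axis, scaled intensity units), with the geometric mean of the 3 pools as a bar and the range of the background floors in grey. Prph2 is high in pool 1 (9356.3) and low in pools 2 and 3 (1469.1 and 1332.3), while 5 of the other 6 probe sets keep close to their mean.

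Rom1, the partner of Prph2 in disc rims, did not share this pattern. Its main probe set, 93453_at, had 5146.8, 5376.5 and 4794.7 in pools 1, 2 and 3, with a mean of 5106.0 ± 293.0 (SD, n = 3). The 3 pools lay within 1.12-fold of each other, and the SD of log2 signal, 0.083, was 0.382 times the fitted one (limma, adjusted p = 1.0). The log2 ratio of Prph2 to Rom1 within an array was therefore 2.73 higher in pool 1 than in pool 2 and 2.71 higher than in pool 3, and pool 2 differed from pool 3 by -0.02. These differences have no replicate within a pool. The second Rom1 probe set, 161525_f_at, belongs to the f class, whose probes can bind related transcripts. It had 754.2, 2033.6 and 991.4, highest in pool 2 and lowest in pool 1, a range of 2.7-fold that did not pass (limma, adjusted p = 0.56). With this probe set in the ratio, Prph2 over Rom1 was 4.10 higher on the log2 scale in pool 1 than in pool 2 and 3.21 higher than in pool 3, and pool 2 differed from pool 3 by -0.90, so the likeness of pools 2 and 3 in this ratio depended on the Rom1 probe set. The probe sets of Rom1 thus gave the same highest pool and different spreads, and neither was highest in pool 1.

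The sequences at the start of these genes are shown because Prph2 was called while Rom1, its partner, was not, and because Tulp1 lies on the same chromosome as Prph2 and was the other member highest in pool 1. Each runs 5′ to 3′ on the gene's strand, from 250 bases before to 50 bases after the annotated start (RefSeq, build GRCm38.p6), with capitals for TAATC on either strand (TAATC or GATTA), the core of sites that bind photoreceptor homeodomain factors such as CRX.
Prph2, chr17:46910228-46910527, plus strand: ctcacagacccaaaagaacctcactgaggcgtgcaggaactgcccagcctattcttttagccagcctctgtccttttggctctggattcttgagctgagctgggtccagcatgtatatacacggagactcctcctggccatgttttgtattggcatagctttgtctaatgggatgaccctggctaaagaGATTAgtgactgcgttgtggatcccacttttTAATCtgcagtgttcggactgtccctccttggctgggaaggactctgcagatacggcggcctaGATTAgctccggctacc
Rom1, chr19:8929307-8929606, minus strand: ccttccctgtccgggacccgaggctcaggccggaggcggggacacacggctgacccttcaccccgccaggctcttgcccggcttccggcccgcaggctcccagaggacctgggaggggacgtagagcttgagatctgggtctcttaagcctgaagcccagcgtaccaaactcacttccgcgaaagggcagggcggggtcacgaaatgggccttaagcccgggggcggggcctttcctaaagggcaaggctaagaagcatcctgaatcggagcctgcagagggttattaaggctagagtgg
Tulp1, chr17:28365167-28365466, minus strand: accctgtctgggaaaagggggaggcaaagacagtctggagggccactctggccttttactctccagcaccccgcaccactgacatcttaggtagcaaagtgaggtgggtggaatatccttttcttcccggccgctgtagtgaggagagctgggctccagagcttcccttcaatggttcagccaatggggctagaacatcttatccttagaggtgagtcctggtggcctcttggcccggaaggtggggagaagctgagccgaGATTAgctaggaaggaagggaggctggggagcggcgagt

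The Prph2 window held 3 matches to TAATC, beginning at -61, -30 and 33 from the start site, the Tulp1 window 1 at 11 and the Rom1 window none. Of 32851 promoter windows of the same length, 22.0% held at least 1 match on either strand and 0.658% held at least 3. The longer letters TAATCC, which contain TAATC, were in 7.06% of windows, and TGCTGA, a half-site of the rod factor NRL, was in 19.5%, both counted on either strand. Neither was in any of the 3 windows shown. The annotation gave 2 windows for Prom1, of which 1 held a single TAATC, and 3 for Unc119. The outermost Unc119 window held none of these letters, the window at chr11:78345334-78345633 held 3 TAATC, 1 of them within TAATCC, and the third window held 1 TGCTGA. These matches describe letters, and no binding was measured.

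Prom1, which marks the site of disc formation, had a pair of probe sets annotated to the same transcript sequence, so they are not independent. Probe set 93389_at had 8848.4, 11093.2 and 10519 in pools 1, 2 and 3, and 93390_g_at had 4076.4, 4919.7 and 4326.2. Both had pool 2 highest and pool 1 lowest, the reverse of Prph2 for pool 1. The range was 1.25-fold for one and 1.21-fold for the other. Their SDs of log2 signal were 0.837 and 0.625 times the fitted ones (limma, adjusted p = 0.99 for both). Their mean signals were 10153.5 ± 1166.2 and 4440.8 ± 433.2 (SD, n = 3).

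Tulp1, of the tubby family, was highest in pool 1, as Prph2 was, but by a small margin. Its signals were 13082, 10392.7 and 10640.4 in pools 1, 2 and 3, with a mean of 11371.7 ± 1486.3 (SD, n = 3). Pool 1 exceeded pool 2 by 1.26-fold and pool 3 by 1.23-fold. The SD of log2 signal, 0.183, was 0.906 times the fitted one (limma, adjusted p = 0.99). Tulp1 and Prph2 lie 18.6 Mb apart on chromosome 17.

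Unc119 had the smallest range of the 5 genes in the deposited values, though not after quantile normalization, where its log2 range was 0.22 and that of 93453_at of Rom1 was 0.18. It had 11518.8, 12304.4 and 12159.9 in pools 1, 2 and 3, a mean of 11994.4 ± 418.1 (SD, n = 3) and a coefficient of variation of 3.49%. All pools lay within 1.07-fold, and 8089 of 8327 measured probe sets had a larger range. Its SD of log2 signal, 0.051, was 0.253 times the fitted one (limma, adjusted p = 1.0).

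Of the 7 probe sets 1 was called, against 0.216% over the array, and 2 had a range over 2-fold, against 13.2%. By the probe set with the highest mean signal, 2 of the 5 genes were highest in pool 1 and 3 in pool 2. The median SD of log2 signal was 0.171 for the 5 genes, 0.268 for all measured probe sets and 0.208 for the 25% with the highest mean signal. Among Rom1, Prom1, Tulp1 and Unc119, each by its probe set with the highest mean signal, the within-array log2 ratio of a pair (6 pairs) had an SD of 0.1 to 0.35 between pools, and with Prph2 in the pair (4 pairs) it had 1.4 to 1.75. These 4 pairs share the Prph2 probe set, whose own SD was 1.584, so they are not further observations. With 161525_f_at for Rom1, the SD of the ratio was 0.6 against 93389_at of Prom1, 0.7 against Unc119 and 0.89 against Tulp1. Apart from Prph2 and the f-class set of Rom1, the probe sets stayed between the 97.4th and 99.6th percentile on every array.

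**Figure D2:**
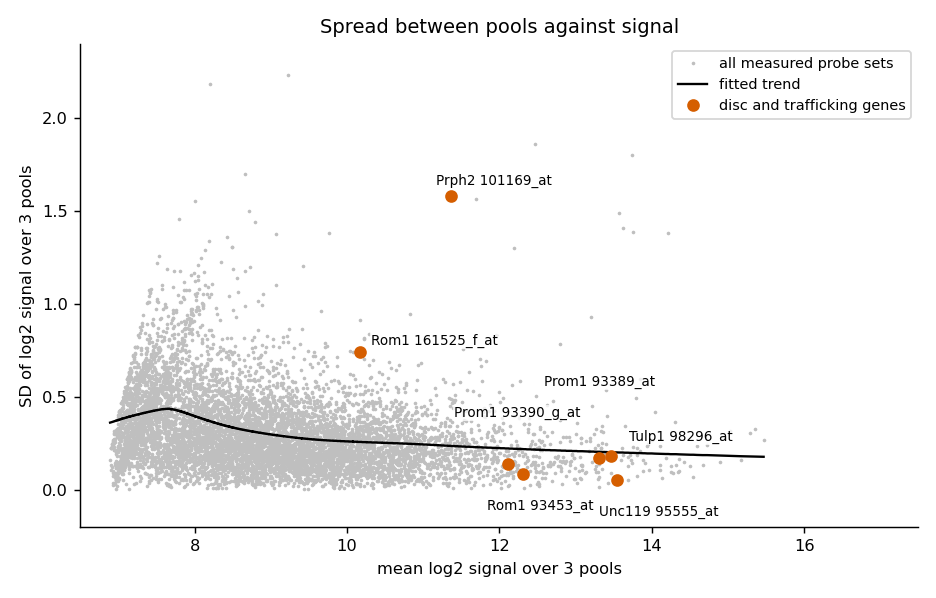
SD of log2 signal between the 3 pools (vertical axis) against mean log2 signal (horizontal axis) for the 8327 measured probe sets (grey), the fitted trend (line) and the 7 probe sets of the 5 genes (orange). Prph2 lies at 1.584, above a fitted 0.236, while Unc119, Tulp1, both Prom1 sets and 93453_at of Rom1 lie under the line.

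Among other genes of the disc, the connecting cilium and ciliary transport none was called. The lists held 111 such genes, 48 had a named probe set and 46 were measured, and all 46 were above the floor on every array. Of these, 0 of 46 were called (limma, adjusted p below 0.05), against 0.216% over the array, a share at which 0 calls is no result about these genes. Further, 4 of 46 had an unadjusted p under 0.05, against 5.34% of the array, and 4 of 46 ranged over 2-fold, against 13.2%. Their median SD of log2 signal was 0.31, against 0.268. With no filter on low signals Dynlrb1, a dynein light chain, was called as well (limma, adjusted p = 0.039), and so it was without pool 1 (limma, adjusted p = 0.0063), with 1387, 1907.3 and 639 in pools 1, 2 and 3. The called probe set, 94862_i_at, is of the i class rather than unmarked. The other Dynlrb1 probe set, of the r class, whose probes were chosen under relaxed rules, had 522.8, 367 and 676.8, the reverse order.

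Of 17 genes on the list for the disc rim and disc formation, which also holds genes not of the disc, 7 had a probe set. Beside Prph2, Rom1 and Prom1 these were Abca4 (the retinoid flippase of disc rims), Mak (a kinase of the photoreceptor cilium), Gucy2e (a guanylate cyclase) and Cnga1 (a subunit of the cation channel of rods). Cnga1 ranged 1.66-fold, with 938.4, 1556.4 and 1182.3 in pools 1, 2 and 3. After Prph2 this was the widest of the 7. None of the other 6 was called.

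The carriers of lipid-modified proteins were steady, with a median SD of 0.121 over 6 measured genes. Pde6d, the carrier of prenylated proteins, had 1734.3, 1806.3 and 2164.1 in pools 1, 2 and 3, and Arl3, the GTPase that releases cargo from Unc119 and Pde6d, had 1287.8, 1788.5 and 1668.1. Arl2bp, a binding partner of Arl2 and Arl3, was the 1 gene of the 6 past 2-fold, with 5388.3, 2144.3 and 3567.8, and did not pass (limma, adjusted p = 0.56). It shared with Prph2 a highest signal in pool 1, but its pools 2 and 3 were apart. Of the cargo, Gnat1 and Gnat2 (rod and cone transducin alpha, cargo of Unc119) and Pde6a and Pde6b (prenylated phosphodiesterase subunits) were all highest in pool 2. Over the array 33.8% of measured probe sets were highest in pool 2. Gnat1 ranged 1.93-fold and Pde6b 1.41-fold, and none of the 4 passed (limma, adjusted p of 0.83 to 0.99).

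All 3 measured genes of the tubby family were highest in pool 1, against 34.0% of measured probe sets, and none was called. Tulp3, which brings receptors into primary cilia, had 1451.8, 744.8 and 998.1, and Tub had 721.2, 649.6 and 715.6. The second Tub probe set did not keep that order, at 414, 359.4 and 414.8. Tulp2 was not measured.

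Intraflagellar transport, which carries cargo along the axoneme, had 13 of 27 listed genes measured. Dynll1 (a dynein light chain) had 9424.5, 9513.9 and 10626.8, Ift88 (a core subunit) 2844.9, 2037.3 and 3022.6, and Kifap3 (the accessory subunit of kinesin-II) 1635.9, 2176.8 and 1642.3 in pools 1, 2 and 3. The Dynll1 probe set is of the f class. Hspb11, another transport subunit, was at 274.1, 478.2 and 518.2. Of the 13, 1 was highest in pool 1, 7 in pool 2 and 5 in pool 3, against 34.0%, 33.8% and 32.2% of the array, and Ift27, named after its values were seen, was the 1 that shared a highest signal in pool 1 with Prph2.

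At the connecting cilium and its base, 8 of 30 listed genes were measured. By the set with the highest mean signal, Cetn3 (a centrin) and Ahi1 (a transition zone protein) were the steadier of these. Cetn3 had 2022.7, 2639.6 and 2050.4, and Ahi1 had 1137.7, 1523.4 and 1258.1. Those Cetn3 values come from an f-class set. Another Cetn3 set, of the r class, was less steady at 107.9, 207 and 168.9, a range of 1.92-fold. Myo7a, a myosin of the cilium, had 458.6, 893 and 374.9, and Cetn2, another centrin, 210.3, 497.8 and 381.8. Both ranged over 2-fold with pool 2 highest and neither passed (limma, adjusted p of 0.83 and 0.98). Tubg1 (gamma-tubulin) had 476.1, 484.8 and 839.8, highest in pool 3. The 1 measured subunit of the BBSome, Bbs9, had 922.7, 1409.5 and 870.6, and its other probe set had the reverse order, at 932.7, 811.4 and 1123.8.

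In the transport of rhodopsin carriers 9 of 11 genes were measured, and none ranged over 2-fold. Snap25, a SNARE protein, had 10858, 7535.1 and 9048.1, Rab6a 2338, 1786.1 and 1518.7, and Asap1 (an Arf-GTPase activating protein) 847.7, 594.1 and 467.2, all highest in pool 1. Rab11a, which acts in carrier transport, had 1339.3, 1767.5 and 2364.5, highest in pool 3. A second probe set of Rab6a was level at 981.3, 983.7 and 937.1, and a second one of Rab11a was highest in pool 2 at 366.5, 604.3 and 430.4, so the order within this group depended on the probe set.

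**Figure D3:**
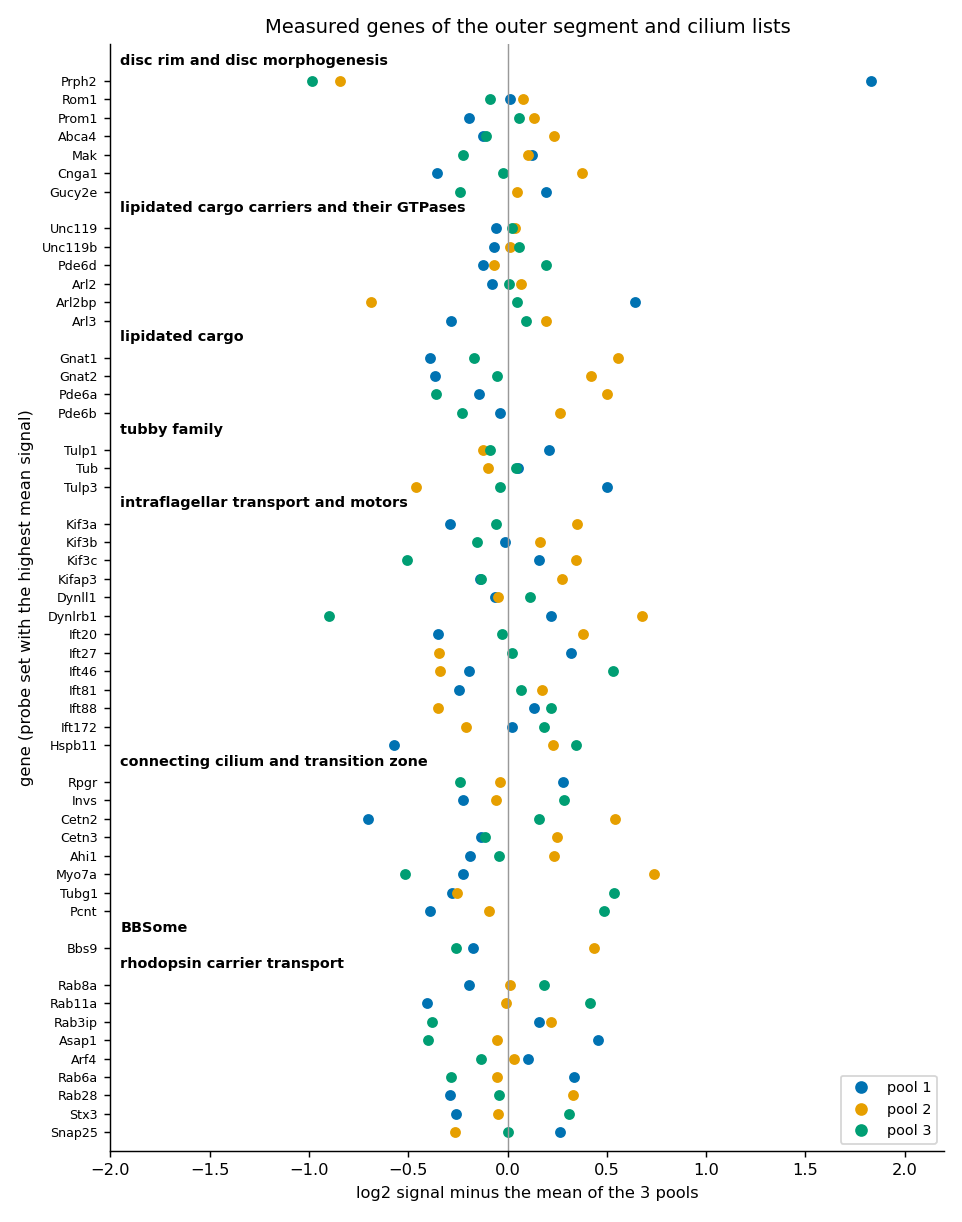
Log2 signal minus the mean of the 3 pools (horizontal axis) for the 51 measured genes of the outer segment and cilium lists, the 5 chosen genes included, with 1 point per pool. Prph2 in pool 1 lies farther from 0 than any other point, and 25 of the 51 genes are highest in pool 2.

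The 6 named probe sets whose centred log2 profile over the 3 arrays was nearest to that of Prph2 were those of Tcf7l1, H2-T24, Col18a1, Ankrd33b, Ppfibp2 and Cyp4f13, at Euclidean distances of 0.63 to 0.87 on the log2 scale. All were highest in pool 1, which follows from how they were chosen. Of the 6, 4 were under the floor in pools 2 and 3 and the other two in 1 of those pools, so their profiles rest partly on the floor, unlike that of Prph2. Ankrd33b, with 1682.3 in pool 1, was at least 13.5-fold higher there than in pools 2 and 3 and was the 1 of the 6 called (limma, adjusted p = 0.004). Another measured probe set was at hand for 3 of the 6 genes, and their highest pool was not always pool 1. Those of Tcf7l1 and Cyp4f13 were highest in pool 2, while for Col18a1 3 of 4 were highest in pool 1 and 1 in pool 3. Of the probe sets of Rom1, Prom1, Tulp1 and Unc119, that of Tulp1 was nearest to Prph2 at 1.99 and 161525_f_at of Rom1 farthest at 3.05. Of the 8327 measured probe sets, 1656 were nearer to Prph2 than Tulp1 was, and 8077 nearer than 161525_f_at.

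Only 3 of 8327 measured probe sets (0.036%) were more than 4-fold higher in pool 1 than in both other pools: those of Prph2 and Ankrd33b and 1 without a symbol (517.3, 125 and 123.8), the last singled out after its values were seen. Of the 20 measured genes nearest to Prph2 on chromosome 17, 10 on each side and up to 1537.5 kb away, 0 were called by limma (0.216% over the array). Of these 20, 0 had an unadjusted p under 0.05 (5.34%), 1 ranged over 2-fold (13.2%) and the largest range was 2.44-fold. At the share over the array, 0 calls among 20 genes is no result about them.

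By limma 0 of 9 rod, 0 of 4 blood and 0 of 4 pigment epithelium markers were called, and 8 of 11 measured lens markers were. The share over the array was 0.216%, at which 0 calls is no result about those markers. Xist, the RNA of the inactive X chromosome, set pool 1 apart and was called (limma, adjusted p = 0.00063). It had 1384.4 in pool 2 and 1543.7 in pool 3 but 69.5 in pool 1, which is less than the floor. The other genes listed for the sex of the animals did not split the pools in this way. Eif2s3y, by a probe set of the f class, had 546.4, 428.8 and 247 in pools 1, 2 and 3, above the floor in each. Kdm5d was under the floor in every pool, Uty was above it only in pool 1 (124.7), and neither was measured. Of 4 measured blood markers 3 were highest in pool 1, with summed signals of 20589.1, 12811.7 and 10724.8 in pools 1, 2 and 3. Of these, Hba-a1 had 16422.3, 9461.1 and 8110.5, Hbb-b2 had 3819.7, 2995.5 and 2195.6, and Alas2 had 299, 215.1 and 239.6. Slc4a1, at 48.1, 140 and 179.1, was under the floor in pool 1 and highest in pool 3. All 9 rod markers were highest in pool 2, with summed signals of 72445.6, 95099.1 and 84043.9, so pool 1, where Prph2 was highest, had the lowest rod marker sum. The sum rests mostly on the probe sets with the highest signals, such as Sag and Pdc. Pde6a and Pde6b were lowest in pool 3, and the other rod markers in pool 1. A second Pde6b probe set, of the f class, was lowest in pool 1, at 1171.4, 1563.1 and 1475.2. All 11 measured lens markers of 12 were highest in pool 3, with sums of 94913.7, 25459.7 and 203614.4, an order that Prph2 did not have. Of 7 pigment epithelium markers 4 were measured, with sums of 1433.6, 1380.9 and 2220.8, and Tyr and Tyrp1 were not. The ratio of 3' to 5' signal was lowest in pool 1 for Actb (1.1, against 1.4 and 1.63) and between the others for Gapdh (0.82, against 0.9 and 0.75). The part of any of these in the Prph2 result was not tested.

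**Figure D4:**
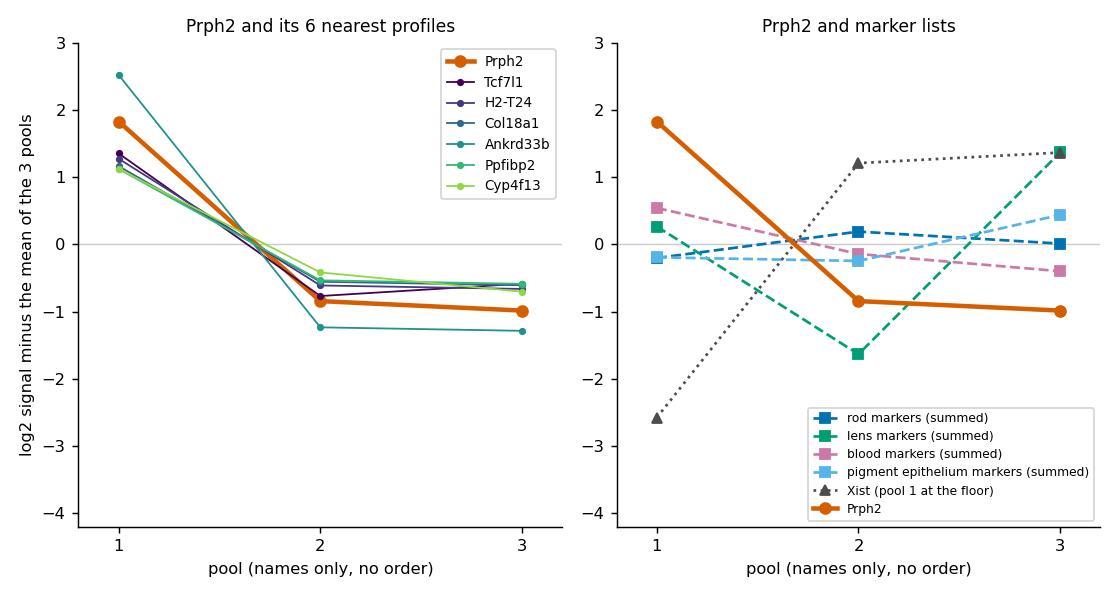
Log2 signal minus the mean of the 3 pools (vertical axis) in pools 1, 2 and 3 (horizontal axis, without order), with lines joining the values of 1 gene or list. Left, Prph2 with its 6 nearest profiles, signals under the floor set to it. Right, Prph2 with the summed signals of rod, lens, blood and pigment epithelium markers and with Xist. The rod sum is lowest in pool 1 (72445.6), where Prph2 is highest. The rod marker Pde6a and the Pde6b probe set with the highest mean signal are lowest in pool 3.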

How the data were processed

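Total RNA of 3 pools of neural retina was hybridised to 1-colour Affymetrix U74Av2 arrays, per the labels. The deposited table holds the authors' intensity values, linear and 1 for each probe set on each array. How the authors computed them is not given in the sources used here. Their 2% trimmed means were 500.26, 500.25 and 500.26, so no further scaling was applied. After 1 blank row and 66 control probe sets were dropped, 12422 probe sets remained, of which 10833 had 1 gene symbol, 396 several and 1193 none in the platform annotation. Symbols were updated through gene identifiers (assembly GRCm38.p6).

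Each array's floor was the 90th percentile over 19 bacterial and yeast controls, and lower signals were raised to it before log2. The 8327 probe sets with a mean above the mean floor are called measured. Variability was tested in R 4.3.3 with limma 3.58.1, from a model with an intercept alone, a robust F distribution with an intensity trend fitted to the variances, the tail p-value, and Benjamini-Hochberg adjustment over all 8327. The method was also run on simulated data in which probe sets of like signal had the same SD. That run cannot show how the method deals with probe sets of unlike variance, and no result rests on it. A gene of a list was represented by its probe set with the highest mean signal. Levels of different probe sets were not compared. Precision is limited by there being 3 arrays.

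The 5 genes and the lists were chosen with earlier results of these data known. Named list genes were the called ones, up to 3 per list with the highest mean signal and up to 2 with the largest range. The promoter letters and the neighbouring genes were chosen after seeing the data. Alternatives covered normalization, the floor, the filter on low signals, the variance model, each pool left out, and the probe set of a gene. Other steps and the figures used Python 3.11.15, matplotlib 3.10.9, pandas 2.3.3 and numpy 2.4.6.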

Additional observations from a re-analysis of the deposited data

How the results depend on the processing

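Of 144 values recomputed under alternatives, 130 stayed on the same side of the threshold, within 1.5 times the count or within 1 SD between pools of the value reported. Many of the 144 were adjusted p-values of the 6 probe sets not called, which in the main fit were 0.56 or more (limma). Only the differences in the log2 ratio of Prph2 to Rom1 could change sign, and none did. With the other Rom1 probe set they went from 2.73 to 4.10 (pool 1 minus 2) and from 2.71 to 3.21 (pool 1 minus 3). The difference of pool 2 minus pool 3 went from -0.02 to -0.90. The SD of this ratio between pools, 1.57 with 93453_at, holds the Prph2 difference itself, so it is a wide limit. With no intensity trend the count of called probe sets went from 18 to 0 over the array, from 1 to 0 among the 7 probe sets and from 1 to 0 among the list genes, and Prph2 had an adjusted p of 0.98 (limma). The main fit gave 445 at an unadjusted p under 0.05. The array count was 10 without a floor, 52 without a filter on low signals and 6 with an ordinary fit. The list count was 2 without that filter. Leaving out 1 pool gave 4 to 40 calls over the array, 0 to 1 among the 7 probe sets, and an adjusted p for Prph2 of 0.00078 to 1.0 (limma), the last without pool 1. The list count stayed at 1 without pool 1, where the gene was Dynlrb1. In the other alternatives Prph2 passed, with adjusted p from 1.7e-15 to 0.03 (limma). Its log2 range was 2.80 to 2.81 under the 3 alternatives that recomputed it, quantile normalization and the other floors. The causes were not tested. With 2 pools the test rests on 1 difference per probe set. No paired analysis was possible because there is 1 group. The group is too small to examine for outlying samples.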
